A study of Mus musculus with 2 samples.

Results

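Mir126a, Mir126b, Mir221 and Mir222 are 4 mouse microRNA genes tied to blood vessel lining. They were chosen by their gene symbols and make up 4 of the 2202 microRNA genes counted. Mir126a held 10.04% ± 1.72 of the reads assigned to genes (SD, n = 2), rank 2 among all genes in replicate 2 and rank 3 in replicate 1, counting only reads placed at 1 locus. Mir221 held 0.0345% ± 0.00132 and Mir222 held 0.00202% ± 0.000338. Mir126b, on the other DNA strand of Mir126a, had 0 reads in replicate 2 and 1 read in replicate 1. Of the 3 genes with enough reads to test, Mir126a passed a test of counting noise between the libraries, at 1.34-fold higher in replicate 2, as did 63.0% of all tested genes. The call was lost in a test that allows for a spread estimated from the difference between these same 2 libraries (edgeR, adjusted p = 1).

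The study sequenced small RNA of the gastrocnemius, the large muscle of the calf. The 2 samples came from female mice of the strain B6CASTF1/J at 36 days of age, with no treatment named in the labels. Mice of this kind are the first generation of a cross between the laboratory strain C57BL/6 and the wild-derived strain CAST/EiJ. Both samples form 1 group and are numbered biological replicates 2 and 1. Their labels name different females and also the same donor identifier, so the spread between them may be technical in part or in whole.

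Reads in microRNA genes numbered 2078101 in replicate 2 and 1593787 in replicate 1. Of the whole library this is 14.8% for replicate 2 and 16.7% for replicate 1. Reads with more than 1 place in the genome were 77.6% in replicate 2 and 75.4% in replicate 1, and the tables assign them to no gene. Detection was set at 10 or more reads in each library, which 273 genes reached. Mir126a, Mir221 and Mir222 were among them. Levels are given as percent of gene-assigned reads or as counts per 1000000 such reads (CPM). The listed skeletal muscle microRNAs held 6.98% of gene-assigned reads in replicate 2 and 2.21% in replicate 1, with all 9 listed genes having reads and 7 detected. These shares leave out any muscle microRNA reads with more than 1 place in the genome. The samples hold whole tissue, so fewer cells of a type and less RNA per cell cannot be told apart.

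A microRNA is cut from a hairpin-shaped precursor and guides silencing proteins to messenger RNAs that pair with its seed, the short stretch near its 5′ end. miR-126 is made from an intron of Egfl7, a gene of endothelial cells, which line blood vessels. It is known to favour vessel growth and integrity by repressing Spred1 and Pik3r2, which dampen growth factor signalling. miR-221 and miR-222 come from 1 cluster and share a seed. They are known to repress the receptor Kit in endothelial cells and the cell cycle inhibitor p27, and in cultured myoblasts they decline as the cells differentiate. Because they are also made outside the endothelium, they mark it less strictly than miR-126 does.

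All 4 hairpins were found in RefSeq sequence of build GRCm38.p6, the assembly that mm10 stands for, and each was identical to its GENCODE M21 transcript. The mature forms found there are shown with their seeds, bases 2 to 8, in capitals, because the seed is what Mir221 and Mir222 share and what sets miR-126a-3p apart from them.
miR-126a-3p: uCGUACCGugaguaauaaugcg
miR-126b-5p: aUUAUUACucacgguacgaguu
miR-126b-3p: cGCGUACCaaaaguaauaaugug
miR-221-3p: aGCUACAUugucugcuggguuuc
miR-222-3p: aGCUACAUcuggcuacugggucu
miR-221-5p: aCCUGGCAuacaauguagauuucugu
The seed of miR-126a-3p occurred in no other mature form among the 1738 of the table. The seed GCUACAU was shared by miR-221-3p, miR-222-3p and miR-1928. The first 8 bases of miR-221-3p and miR-222-3p were identical, and 11 of 23 positions were identical over their whole length without gaps. Mir1928, the third gene of that seed, had 0 reads in both libraries, which allows up to 1.44 CPM in replicate 2 and 1.88 CPM in replicate 1. This limit and the intervals below cover counting error only, since PCR copies of a molecule cannot be recognised. Together the genes of this seed had 735 reads in replicate 2 and 601 in replicate 1, nearly all from Mir221.

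None of these mature forms occurred whole in the hairpin of another gene of the table. Outside the 4 hairpins, the longest stretch shared with any other hairpin on either strand was 9 bases for miR-126a-3p, 10 for miR-221-3p and 11 for miR-222-3p. The rest of the genome was not searched. No other hairpin of the table therefore gives these forms a further exact match. The table listed no mature form from the other side of the Mir126a and Mir222 hairpins, so copies of those sides were not checked. It held a hairpin for 231 of the 273 detected genes, and the others were not searched.

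Mir126a (ENSMUSG00000065540.1) is at chr2:26591357-26591429 on the plus strand in mm10. It lies inside Egfl7, in an intron of 8 of the 19 annotated Egfl7 transcripts and in an exon of 1. In an annotated transcript of that kind the intron is 600 bases long and follows exon 7, with 293 bases before the hairpin and 234 after it. Mir126b (ENSMUSG00000105799.1) is at chr2:26591363-26591420 on the minus strand, so all of its 58 bases lie within Mir126a. The hairpins are shown because they are the same DNA read in both directions. Capitals mark the mature forms of the table, which has none for the other side of the Mir126a hairpin.
Mir126a hairpin: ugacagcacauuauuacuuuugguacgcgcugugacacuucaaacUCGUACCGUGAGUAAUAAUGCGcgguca
Mir126b hairpin: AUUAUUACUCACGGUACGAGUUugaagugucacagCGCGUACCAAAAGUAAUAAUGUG
The Mir126b hairpin was the exact reverse complement of bases 7 to 64 of the Mir126a hairpin. On the genome, miR-126b-5p covers 19 of the 22 bases of miR-126a-3p from the other strand.

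Mir221 (ENSMUSG00000065422.1) is at chrX:19146294-19146388 and Mir222 (ENSMUSG00000065471.1) at chrX:19146893-19146971, both on the minus strand. They are 504 bases apart, with Mir222 first in the direction of transcription. No other annotated gene overlapped either of them. The nearest annotated gene before them on that strand was the processed transcript Gm14636, 10009 bases away.
Mir221 hairpin: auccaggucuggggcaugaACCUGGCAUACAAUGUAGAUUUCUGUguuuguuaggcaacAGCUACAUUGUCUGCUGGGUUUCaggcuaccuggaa
Mir222 hairpin: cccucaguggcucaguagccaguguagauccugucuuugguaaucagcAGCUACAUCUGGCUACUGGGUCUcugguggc
GC content was 45.2% for the Mir126a hairpin, 47.4% for Mir221 and 54.4% for Mir222. The median over the 231 detected genes with a hairpin in the table was 49.0%.

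Mir126a had 233890 reads in replicate 2 and 140627 in replicate 1. They made up 11.3% of gene-assigned reads in replicate 2 (exact 95% Clopper-Pearson interval 11.2% to 11.3%), rank 2 among all genes, and 8.82% in replicate 1 (8.78% to 8.87%), rank 3. Counts are per hairpin gene, so reads of its 5p and 3p arms could not be told apart. The 3 genes nearest to Mir126a in level were farther from it than those nearest to Mir221 and Mir222 were from them. By distance over log2(CPM + 1) of the 2 libraries, the nearest were Mirlet7g at 0.85, Mir143 at 0.98 and Mir378a at 1.04. Mirlet7g belongs to the let-7 family, Mir143 is a gene of smooth muscle and other mesenchymal cells, and Mir378a lies in the metabolic gene Ppargc1b.

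Within a library, Mir126a had fewer reads than Mir378a in both, 0.780 times as many in replicate 2 and 0.507 times in replicate 1. It exceeded Mirlet7g 1.5-fold in replicate 2 and 1.53-fold in replicate 1. Its order with Mir143 turned between the libraries, with 1.84 times the reads of Mir143 in replicate 2 and 0.748 times in replicate 1. Mir206 was the gene of the muscle list with most reads placed at 1 locus. The ratio of Mir126a to it was 1.68 in replicate 2 and 4.28 in replicate 1. The ranks of Mir126a and Mir143 therefore did not differ beyond the spread between the libraries, whereas Mir126a stood above Mirlet7g and Mir206 in both.

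Mir221 had 698 reads in replicate 2 and 565 in replicate 1. Its level was 335.9 CPM in replicate 2 (interval 311.4 to 361.7), rank 104, and 354.5 CPM in replicate 1 (325.9 to 385.0), rank 96. The genes nearest to it were Mir34a at a distance of 0.13, Mir30b at 0.14 and Mir409 at 0.18 on the log2 scale, and the range of its 2 levels overlapped with each of theirs. In rank by mean level it stood between Mir34a and Mir342.

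Mir222 had 37 reads in replicate 2 and 36 in replicate 1. Its level was 17.8 CPM in replicate 2 (interval 12.5 to 24.5), rank 234, and 22.6 CPM in replicate 1 (15.8 to 31.3), rank 230. The nearest genes were Mir296 at a distance of 0.09, Mir677 at 0.16 and Mir701 at 0.21. By mean level 13.6% of the detected genes lay below Mir222, 63.4% below Mir221 and 99.3% below Mir126a.

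**Figure D1:**
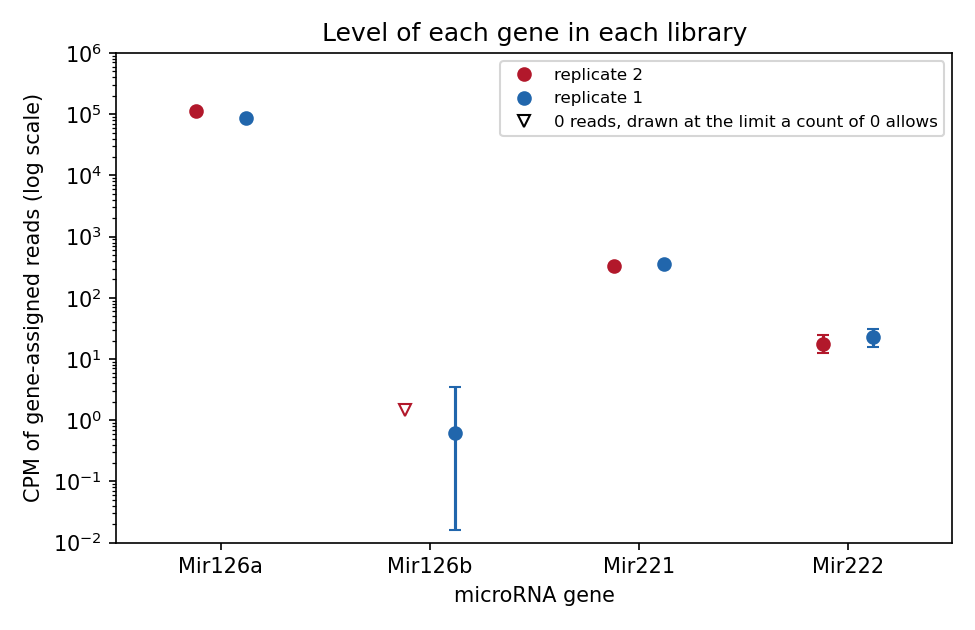
Points give counts per 1000000 gene-assigned reads (CPM, log axis) of the 4 genes in replicate 2 and replicate 1, with exact 95% counting intervals as bars where these are wider than the point. Mir126a stands far above Mir221 and Mir222 in both libraries, and Mir126b is at 0 reads in replicate 2 (triangle at the 1.44 CPM that a count of 0 allows) and at 1 read in replicate 1.

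**Figure D2:**
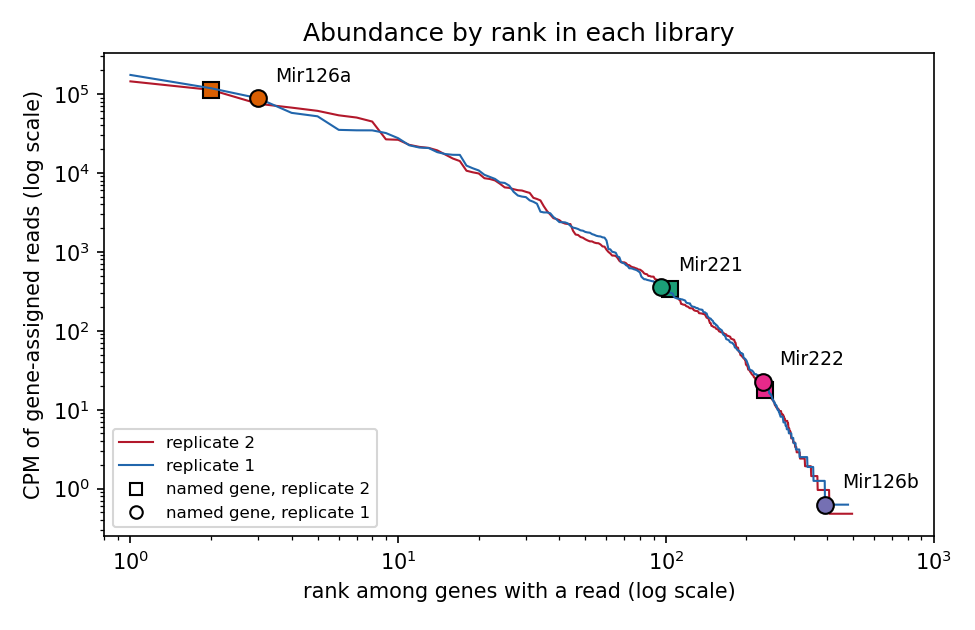
Lines give the CPM of every gene with a read (log axis) against its rank in its library (log axis), with the 4 genes marked by squares for replicate 2 and circles for replicate 1. In replicate 2 Mir126a is at rank 2, Mir221 at rank 104 and Mir222 at rank 234, and in replicate 1 they are at ranks 3, 96 and 230, while Mir126b is marked for replicate 1 only.

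The neighbours Mir221 and Mir222 were unequal in reads. Mir221 had 18.9 times the reads of Mir222 in replicate 2 (exact 95% interval 13.6 to 27.0) and 15.7 times in replicate 1 (11.2 to 22.6). The mean log2 ratio of reads was 4.10 ± 0.19 (SD, n = 2), and 3.84 ± 0.19 per base of hairpin. The ratio did not differ detectably between the libraries, at 1.20 times larger in replicate 2 (Fisher's exact test, p = 0.469 after adjustment over 3 ratios). This test and those on the ratios of Mir126a take reads as independent and cover counting error between these libraries only.

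Mir126a had 335.1 times the reads of Mir221 in replicate 2 (interval 311.1 to 361.4) and 248.9 times in replicate 1 (229.2 to 270.8). The mean log2 ratio of reads was 8.17 ± 0.30 (SD, n = 2), and 8.55 ± 0.30 per base of hairpin. That ratio was 1.35 times larger in replicate 2 (Fisher's exact test, adjusted p = 6.3e-07). Against Mir222 the ratio of Mir126a was 6321 in replicate 2 and 3906 in replicate 1, and this difference did not pass (Fisher's exact test, adjusted p = 0.0605). Adapters join to different small RNAs with different efficiency, so these ratios compare reads and need not equal the ratios of the molecules.

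The opposite strands of the Egfl7 intron were far apart in reads. In the counts taken on the strand of the gene, Mir126a had 233890 reads against 0 for Mir126b in replicate 2. In replicate 1 it had 140627 reads against 1. The 0 reads of Mir126b allow up to 1.44 CPM in replicate 2. In the counts on the opposite strand the numbers changed places, with 233889 at Mir126b in replicate 2 and 140626 in replicate 1, so all but 1 read of Mir126a in each library overlapped the Mir126b hairpin. Counted without regard to strand, Mir126a had 1 read in each library and Mir126b had 0, because a read within both genes is then left as ambiguous. Mir221 and Mir222 had the same counts with and without regard to strand, and no read on the opposite strand.

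The strand asymmetry was set beside the other microRNA genes that overlap on opposite strands, which form 31 pairs of 62 genes. In 21 of them the gene with more reads was detected. The gene on the other strand had 0 reads in both libraries in 15 of these pairs, at most 3 reads in each library in 17, and was detected in 2, Mir3107 beside Mir486 and Mir3074-1 beside Mir24-1. Mir378a, Mir451a and Mir30e were the most abundant genes of these other pairs, and their partners Gm25301, Mir451b and Mir30f had 0 reads.

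**Figure D3:**
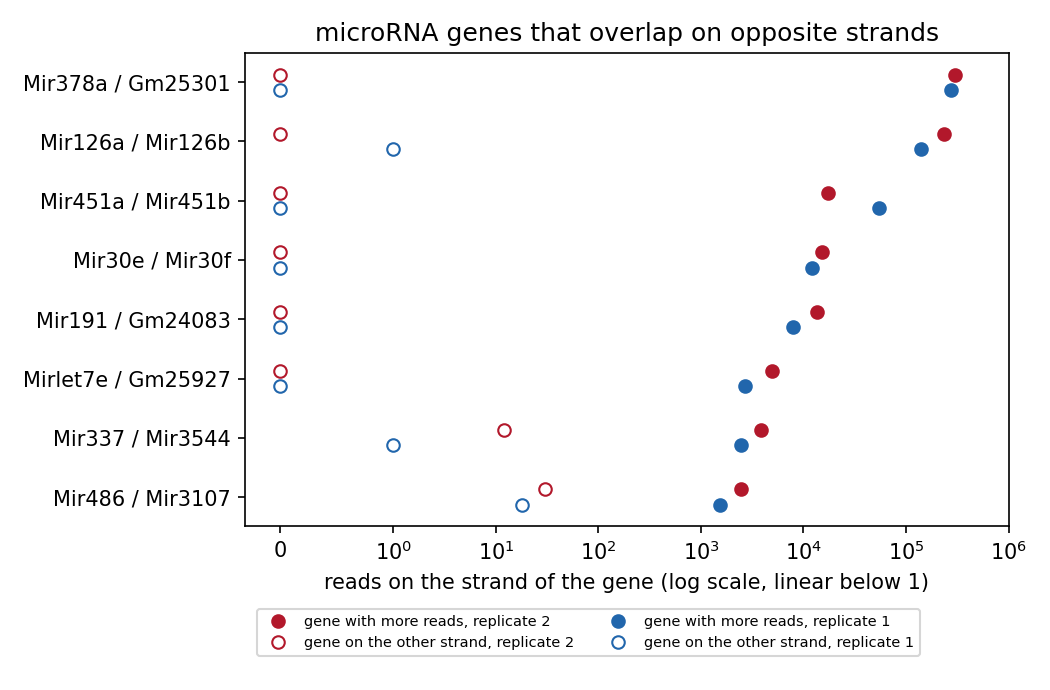
For the 8 most abundant pairs of microRNA genes that overlap on opposite strands, filled points give the reads of the gene with more reads and open points those of its partner, in replicate 2 and replicate 1 (log axis, linear below 1). Mir126a had 233890 reads in replicate 2 and 140627 in replicate 1, Mir126b had 0 and 1, and in 6 of the 8 pairs the partner had at most 1 read in each library.

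The 2 libraries were set against each other with an exact two-sided binomial test on the reads of each detected gene, scaled by TMM factors, with Benjamini-Hochberg adjustment over all 273 genes. It compares these libraries for counting noise and takes no account of spread between animals. Of all detected genes, 63.0% passed, 33.3% higher and 29.7% lower in replicate 2. Of the 3 detected genes Mir126a, Mir221 and Mir222, 1 passed.

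The fold of Mir126a was 1.34, higher in replicate 2, with an exact 95% interval of 1.33 to 1.35, which is 0.42 on the log2 scale. The median absolute log2 fold of the detected genes was 0.36, and 122 of the 273 genes had a larger one than Mir126a. The exact test of edgeR, run at the dispersion estimated over all detected genes (a coefficient of variation of 0.335), did not call Mir126a (edgeR, adjusted p = 1). Since that dispersion was estimated from the difference of the libraries itself, it gives no independent spread between animals. The edgeR test called 1.47% of the detected genes.

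Mir221 had a fold of 0.993 in replicate 2 over replicate 1 (0.887 to 1.11, adjusted p = 0.959 in the exact binomial test). Of the 273 genes, 266 had a larger absolute log2 fold. Mir222 had a fold of 0.826 (0.508 to 1.34, adjusted p = 0.519 in the exact binomial test). Its interval holds the fold of Mir126a at its upper end, so at this depth a difference of the size seen for Mir126a was not detectable.

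**Figure D4:**
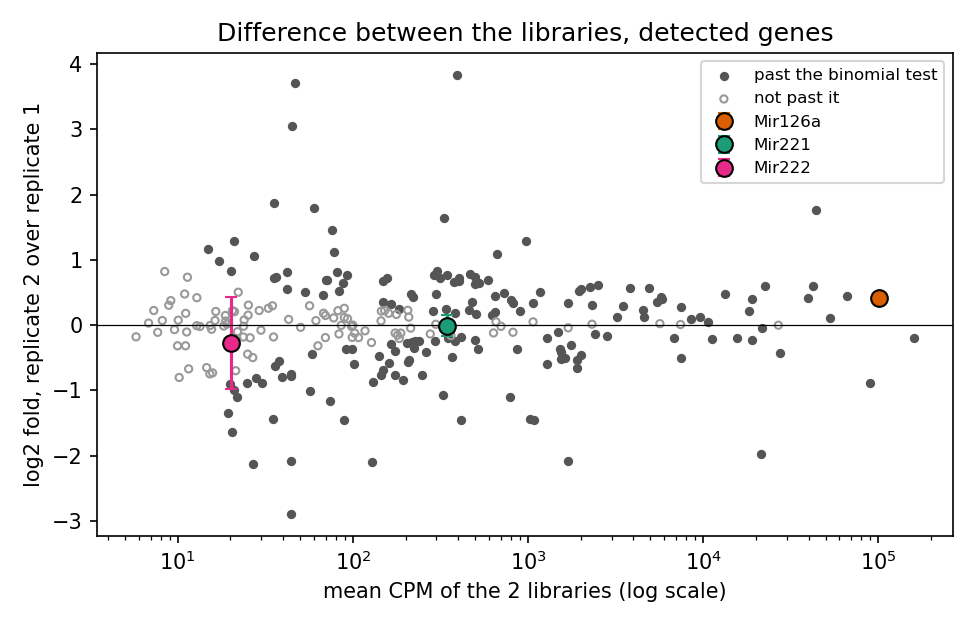
Each point is a detected gene, with its mean CPM (log axis) and its log2 fold of replicate 2 over replicate 1. Grey points are filled where the gene passed the binomial test. Mir126a, Mir221 and Mir222 are coloured and filled whatever the result, and of these only Mir126a passed. Mir126a lies at 0.42, Mir221 at -0.01 and Mir222 at -0.28 with a wide exact 95% interval (bar).

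Other microRNAs described in endothelial cells or vessel growth went in both directions. The list had 30 genes, of which 27 were matched by symbol and 20 detected. In replicate 2, 8 of them were higher, 7 were lower and 5 did not pass, beside the 33.3% and 29.7% of all genes. The median log2 fold of the list was 0.05, and that of all detected genes was 0.02. The list held 15.0% of reads in replicate 2 and 13.0% in replicate 1. No gene of it passed the edgeR test. The listed names Mir18a, Mir92a-1 and Mir92a-2 matched no symbol and are in none of these numbers. The annotation holds Mir18, Mir92-1 and Mir92-2 instead, all detected and past the binomial test. Mir18 was 0.557 times as high in replicate 2, and Mir92-1 and Mir92-2 were 1.58-fold and 1.99-fold higher.

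The 4 highest genes of that list were Mir23a, Mir23b, Mir10b and Mir322. Mir23a and Mir23b, of the 2 clusters that also hold the miR-27 and miR-24 genes, were 1.52-fold (1.51 to 1.54) and 1.33-fold (1.32 to 1.35) higher in replicate 2. Mir10b, a Hox cluster gene whose relatives promote vessel sprouting in zebrafish, was 0.855 times as high (0.842 to 0.868). Mir322 was 1.04-fold higher (1.02 to 1.06) after TMM scaling only. Before that scaling its level was 10641.9 CPM in replicate 2 and 10728.5 CPM in replicate 1. Some genes of the list give a mature form that another hairpin also holds, 7 of the 27 with a mature form in the sequence table, and their counts cover only reads placed at 1 locus.

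Among the marker lists for other cells, the leukocyte and fibroblast lists held both higher and lower genes. The called genes of each other list went in 1 direction. The counts of all these lists stand beside 33.3% of all tested genes higher and 29.7% lower in replicate 2. Of the genes of these lists, edgeR's test called Mir499 of skeletal muscle and no other. Mir208b, also of the muscle list, had 889 reads in replicate 2 and 5 in replicate 1. It was under the detection minimum in replicate 1 and so was not tested. Of the 7 detected skeletal muscle genes, the binomial test called 4 higher and 0 lower. Only 5 of the 9 listed muscle genes had a mature form in the sequence table, so shared copies of the others were not checked. For those 5 the check covered only the mature forms and hairpins listed there, with 1 mature form for Mir1a-1. It cannot show that they have no shared copy. All these counts cover only reads placed at 1 locus. Mir206 was 3.40-fold higher (3.36 to 3.45), and Mir486, next in mean level, 1.26-fold (1.18 to 1.34). Mir499, from an intron of a slow myosin gene, was 14.3-fold higher (11.5 to 17.9, edgeR adjusted p = 0.000309). Both detected smooth muscle genes of the vessel wall were lower, and their list held 6.25% of reads in replicate 2 and 12.03% in replicate 1. Mir143 was 0.542 times as high (0.538 to 0.546) and Mir145a 0.689 times (0.656 to 0.722), both with an adjusted p of 1 in edgeR, while Mir145b had 1 read in replicate 2 and 0 in replicate 1. Both genes of red blood cells were lower, with 0.898% of reads in replicate 2 and 3.73% in replicate 1. Mir451a was 0.253 times as high (0.249 to 0.258) and Mir144 0.235 times (0.221 to 0.250), with adjusted p of 0.230 and 0.212 in edgeR. Of the 4 leukocyte genes, all detected, Mir150 and Mir155 were higher and Mir142 and Mir223 lower. Leukocyte genes held 0.209% of reads in replicate 2 and 0.142% in replicate 1. Of the fibroblast list, 3 of 4 genes were detected, with 0.0698% of reads in replicate 2 and 0.0652% in replicate 1. Mir199b was 0.233 times as high (0.184 to 0.293) and Mir214 1.57 times (1.43 to 1.72), while Mir199a-2 did not pass. All the fibroblast genes but Mir214, 3 of 4, give a mature form that another hairpin also holds. Their counts and the share of the list leave out reads with several places. The part of these shifts in the fold of Mir126a was not tested.

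**Figure D5:**
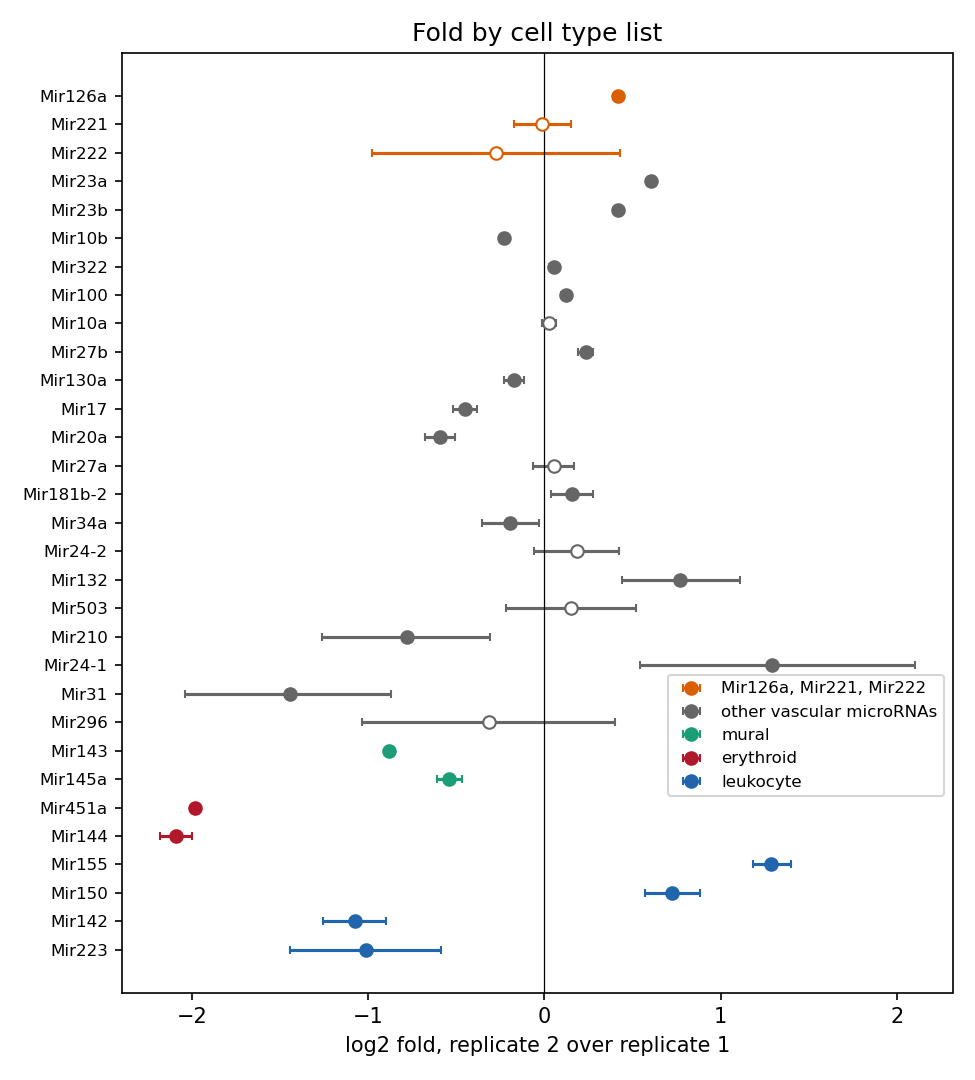
Points give the log2 fold of replicate 2 over replicate 1 with exact 95% counting intervals, filled where the gene passed the binomial test. Drawn are Mir126a, Mir221, Mir222 and the detected genes of the other vascular, smooth muscle, red blood cell and leukocyte lists. The skeletal muscle and fibroblast lists are not drawn. Mir126a lies at 0.42 while the mural (smooth muscle) and erythroid (red blood cell) genes lie below 0, and the other vascular microRNAs lie on both sides.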

How the data were processed

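The authors deposited raw read counts by microRNA gene for 2 libraries of total RNA with a size range under 30 nucleotides, per the labels. Build mm10 and annotation M21 are named per the file headers in the deposited read-me. The submitters' aligner and counter were not given in the sources used here. In each table there are 4 rows of reads in no gene, left out of library sizes: reads matching several places (77.6% of replicate 2, 75.4% of replicate 1), unmapped reads (5.98%, 6.37%), reads outside microRNA genes (1.65%, 1.49%) and ambiguous reads. Its 3 columns were read from their layout as counts without regard to strand, on the strand of the gene (used here) and on the opposite strand.

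Symbols and positions came from GENCODE M21. TMM factors and the common dispersion (intercept-only design) came from edgeR 4.0.16 in R 4.3.3. With 1 group and 1 library per replicate, edgeR's quasi-likelihood test could not be fitted. Binomial, Fisher and Clopper-Pearson computations used scipy 1.17.1 in Python 3.11.15, and adjusted p below 0.05 passed. The binomial procedure was tested on simulated counts with counting noise only, which cannot show how it fares with further spread between libraries. Besides the 4 genes, those named were mainly the highest of each list, the genes nearest in level or rank and certain gene pairs. These pairs were the most abundant on opposite strands, those with both genes detected, and the most unequal neighbours. The members and lists were chosen with earlier results of these data known. Alternatives were other scalings, read minimums, strand columns, totals and pseudocounts, the common dispersion, and leaving out each replicate.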

Additional observations from a re-analysis of the deposited data

Results flagged for a closer look

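Signal stood in parts of the tables that the comparisons do not use, above the limit of 3 counts set by a count of 0. In the column without regard to strand, 233889 reads of Mir126a in replicate 2 and 140626 in replicate 1 were left in the ambiguous row. They made up 38.9% of the 600542 ambiguous reads of replicate 2 and 27.6% of the 508697 of replicate 1. There were 10919725 reads with several places in replicate 2 and 7195252 in replicate 1. Reads placed at 1 locus outside microRNA genes numbered 232773 in replicate 2 and 142257 in replicate 1.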

How the results depend on the processing

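The fold of Mir126a was between 1.26 and 1.34 under the scalings and filters tried and passed the binomial test in each, but not the exact test of edgeR at the dispersion common to all genes (fold 1.34, adjusted p = 1), where 4 genes passed in place of 172. That test gave 0 calls for the other vascular, smooth muscle and red blood cell lists, and 19 genes had an unadjusted p under 0.05. The split of calls was 91 higher and 81 lower, 78 and 92 with scaling by total reads, and 81 and 99 with no filter. For the other vascular list the split was 8 higher and 7 lower, and 6 and 8 with scaling by total reads. The folds of Mir221 (0.939 to 0.993) and Mir222 (0.782 to 0.826) did not pass in any setting tried. Without regard to strand Mir126a held 8.0e-05% of reads, Mir221 0.0497% and Mir222 0.00291%, and the log2 ratio of Mir126a over Mir221 turned to -9.29. By construction, reads within both Mir126a and Mir126b are then not counted. With several-place reads added to the total, the shares were 1.70%, 0.0059% and 0.000347% for Mir126a, Mir221 and Mir222. Without Mir378a they were 11.9%, 0.0411% and 0.00241%. Per base of hairpin, chosen after seeing the data, the log2 ratio was 3.84 for Mir221 over Mir222 and 8.55 for Mir126a over Mir221. Leaving out 1 replicate gave 8.82% to 11.3% for Mir126a, 0.0336% to 0.0355% for Mir221 and 0.00178% to 0.00226% for Mir222. No fold could be given for Mir126b, for Mir126a without regard to strand, for Mir222 with a minimum of 50 reads or with 1 replicate left out. No paired analysis was possible because the design has 1 group. Depth limits Mir126b, with 0 reads in replicate 2 and 1 in replicate 1, and Mir222, with 37 and 36.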

Other observations

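The inequality of Mir221 and Mir222 was set beside other neighbouring microRNA genes, a comparison chosen after the values were seen. There were 57 pairs of neighbours on the same strand under 1000 bases apart with both genes detected. Their median mean log2 ratio of reads was 2.55, and 10 pairs had a larger one than the 4.10 of Mir221 over Mir222. The ratio of a pair differed between the libraries by a median log2 value of 0.35, and by 0.27 for Mir221 over Mir222, with 23 pairs differing less. Among the most unequal pairs were Mir27b over Mir24-1 with 7.89, Mir29a over Mir29b-1 with 7.38 and Mir322 over Mir503 with 7.26. Some of these pairs hold a gene with an identical copy elsewhere, and reads with several places are not counted for any gene.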
